A study of Mus musculus with 2 samples.

Results

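Interferon gamma is the signature cytokine of T helper 1 (Th1) cells, and 8 genes of the machinery that makes and senses it were followed in IL-10-producing CD4+ T cells of mouse spleen and small intestine: Ifng itself, Tbx21, Il12rb1, Il12rb2, Stat4, Il18r1, Il18rap and Ifngr1. They were taken as a named list, all 8 had a row in both count matrices, and the matrices listed 28009 genes in all. The cells came from IL-10 eGFP, Foxp3 mRFP reporter mice aged 8 to 16 weeks, were sorted as CD4+ cells with IL-10 reporter signal, and included Foxp3+ cells. All mice had been injected with anti-CD3, which binds the T cell receptor complex and so triggers T cells, at 15 µg on day 0 and on day 2, and cells were taken 4 h after the latter, so that no untreated cells were part of the comparison. There was 1 library for each tissue, how many mice were pooled for it is not given in the sources used here, and no replicate check and no test were possible. Intestinal lymphocytes had been released with EDTA and collagenase and separated on a Percoll gradient, so tissue, cell preparation and library cannot be told apart.

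In Th1 cells, interleukin 12 binds a receptor of the chains Il12rb1 and Il12rb2 and activates the transcription factor Stat4, and interleukin 18 binds a receptor of the chains Il18r1 and Il18rap. Together with T-bet, the Th1 lineage factor encoded by Tbx21, these signals drive transcription of Ifng, and the secreted cytokine binds a receptor whose ligand-binding chain is Ifngr1. Cells that make IL-10 together with interferon gamma are known from chronic infection and from the gut, where the balance of both cytokines is a recurrent question. The comparison addressed whether the IL-10-producing cells of the tissues differ in this axis, and whether Ifng and Il10 transcripts occur in the same cells.

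The 250 bases before the start sites of the genes, which moved together in part, were read from RefSeq (GRCm38.p6), which held windows for 7 of the 8 genes, Il12rb1 not among them. Each was searched on both strands for a STAT motif (TTCNNNGAA, N being any base), a T-box motif (GGTGTGA) and an AP-1 motif (TGANTCA). The STAT motif was found in the windows of Ifng and Il12rb2 and in 1 of the 3 windows of Il18r1, and no window of these genes held either of the other motifs in these letters. Of 32851 promoter windows of the same length, 7.02% held the STAT motif, 3.33% the T-box motif and 6.75% the AP-1 motif. Windows of the cytokine, of the inducible receptor chain and of the lineage factor are printed 5′ to 3′ on the strand of the gene, with the STAT motif in capitals. They lie at chr10:118440796-118441045 (plus strand, Ifng), chr6:67376189-67376438 (minus strand, Il12rb2) and chr11:97115332-97115581 (minus strand, Tbx21).
Ifng: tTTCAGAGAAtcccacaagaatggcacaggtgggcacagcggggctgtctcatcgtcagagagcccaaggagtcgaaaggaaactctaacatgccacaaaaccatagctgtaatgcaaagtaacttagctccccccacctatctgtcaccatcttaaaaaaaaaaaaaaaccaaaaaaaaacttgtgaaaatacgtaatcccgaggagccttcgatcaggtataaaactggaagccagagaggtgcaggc
Il12rb2: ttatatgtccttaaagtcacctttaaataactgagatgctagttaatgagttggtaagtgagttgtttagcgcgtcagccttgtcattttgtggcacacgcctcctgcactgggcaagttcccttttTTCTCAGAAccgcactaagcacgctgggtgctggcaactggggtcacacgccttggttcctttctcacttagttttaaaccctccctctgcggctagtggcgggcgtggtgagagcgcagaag
Tbx21: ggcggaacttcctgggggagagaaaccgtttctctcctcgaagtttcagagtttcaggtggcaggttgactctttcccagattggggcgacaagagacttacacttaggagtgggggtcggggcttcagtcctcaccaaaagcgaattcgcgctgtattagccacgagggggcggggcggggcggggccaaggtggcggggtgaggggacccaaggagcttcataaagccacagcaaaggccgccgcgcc

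The genes are spread over 5 mouse chromosomes (GRCm38): Ifng lies at chr10:118441046-118445892 and Ifngr1 at chr10:19591949-19610229, Tbx21 at chr11:97098071-97115331, Il12rb1 at chr8:70808449-70821424, Il12rb2 at chr6:67291318-67376188, and Stat4 at chr1:51987148-52107189. The genes of both interleukin 18 receptor chains are neighbours on chromosome 1 on the plus strand, with Il18r1 at chr1:40465552-40500854 and Il18rap at chr1:40515362-40551705, 14507 bases apart. Counts were of unique molecular identifiers (UMIs), tags through which copies of a captured transcript are counted a single time, over whole genes.

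After filtering, 1277 intestinal cells (5032225 UMIs, median 3696 per cell) and 1468 splenic cells (9151420 UMIs, median 5398 per cell) were kept, and the libraries shared 0 cell barcodes. A level is the UMIs of a gene summed over cells, per 1000000 UMIs (CPM), and the smallest level read, that of 3 UMIs, was 0.596 CPM for intestinal and 0.328 CPM for splenic cells. Splenic cells were 1.46 times as deep by their median, so shares of cells with a UMI were compared after each cell was thinned at random to 2095 UMIs, which kept 1149 intestinal and 1438 splenic cells. Ranges in parentheses after a value are 95% intervals (exact Poisson for levels, exact binomial for shares) and cover counting error only. The T cell genes Cd3d, Cd3e and Cd3g were found in 92.6% to 98.3% of intestinal and 90.1% to 99.5% of splenic cells, and Cd4 in 73.1% and 67.1%. Among other possible sources of Ifng, the natural killer genes Ncr1 and Klra8 had 0 UMIs in both tissues and the list of 4 NK and ILC1 genes summed to 3.58 and 1.97 CPM. The CD8 genes behaved otherwise, with Cd8a at 201 CPM in the small intestine and 0 UMIs in the spleen, and Cd8b1 at 152 and 13.8 CPM. The 4 gamma delta T cell genes looked for had no row in the matrices, so that possible source of Ifng was not checked. The summed levels in the small intestine and the spleen were 14.1 and 6.45 CPM for 4 B cell genes, 68.6 and 16.1 CPM for 4 myeloid genes, 9.54 and 31.8 CPM for 5 epithelial genes, and 0 and 0.328 CPM for 2 red cell genes. The myeloid sum was mostly Cd68 (63.2 and 8.85 CPM), with Lyz2 at 0 UMIs in the small intestine. The epithelial sum was mostly Epcam (7.75 and 31.6 CPM), so the higher splenic sum rests on that gene. The part of the B cell, myeloid, epithelial and red cell genes in the results was not tested.

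Across the axis, 6 of the 8 genes were at least 2-fold higher in the small intestine, where 10.4% of the 9032 genes with at least 50 UMIs were, and 0 were at least 2-fold higher in the spleen, where 13.6% of genes were. All 8 had at least 50 UMIs. Their median log2 ratio of small intestine over spleen was 1.60, beside -0.02 over all 9032 genes. The genes past the fold were Ifng, Il12rb2, Stat4, Il18r1, Il18rap and Ifngr1, while Il12rb1 was higher by less than that and Tbx21 was lower in the small intestine.

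**Figure D1:**
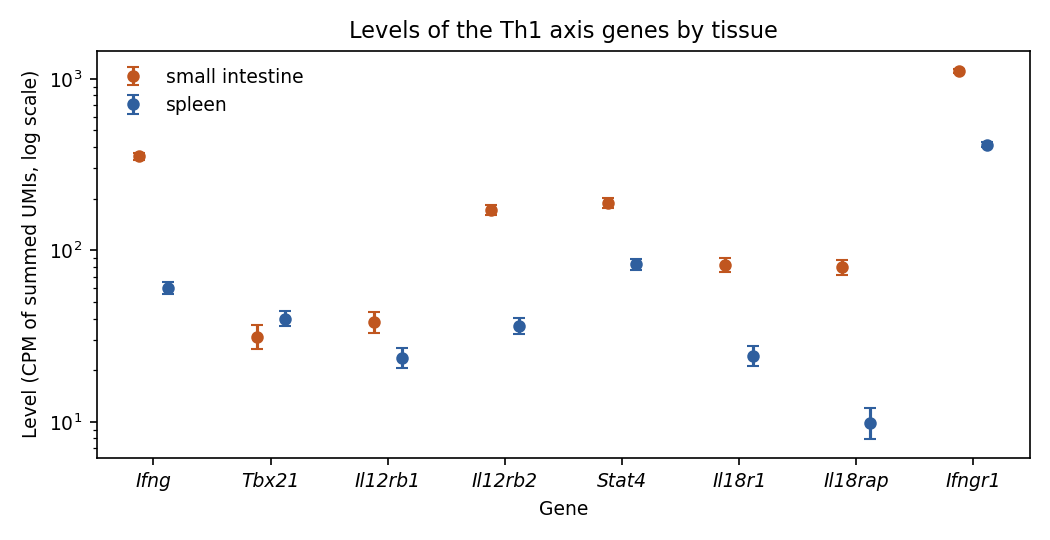
Level of each gene in CPM (log axis) in the small intestine (orange) and the spleen (blue), 1 library each, with exact Poisson 95% intervals. The intestinal point lies above the splenic one for 7 of the 8 genes, and for Tbx21 it lies below (31.4 against 40.0 CPM).

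The cytokine gene showed a large gap. Ifng was at 354 CPM (338 to 371, 1782 UMIs) in the small intestine and at 60.2 CPM (55.3 to 65.5, 551 UMIs) in the spleen, which is a 5.88-fold (5.34 to 6.48) higher level, or 2.56 on the log2 scale. At equal depth, 456 of 1149 intestinal cells (39.7%, 36.8 to 42.6) and 132 of 1438 splenic cells (9.18%, 7.74 to 10.8) had an Ifng UMI. The shares differed by 30.5 percentage points (27.2 to 33.7), and with all deposited UMIs they were 52.5% and 15.7%. Both the level and the share were therefore higher in the intestinal library by more than counting error.

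Cells with Ifng also held more of it in the small intestine. At equal depth, cells with an Ifng UMI had a mean of 1.93 Ifng UMIs there and of 1.39 in the spleen. In the small intestine 251 cells had 1 UMI, 111 had 2, 61 had 3 to 4, 31 had 5 to 9 and 2 had 10 to 15, and in the spleen the counts were 100 cells with 1 UMI, 21 with 2, 8 with 3 to 4 and 3 with 5 to 9. The 10% of intestinal cells with most Ifng held 50.9% of its UMIs, and the variance over cells was 2.40 times the mean. In the spleen the variance was 1.78 times the mean. This ratio depends on the mean, which was 0.764 Ifng UMIs per intestinal and 0.127 per splenic cell. It is therefore not compared between tissues. All splenic Ifng UMIs lay in fewer than 10% of cells, which follows from the 9.18% of cells with a UMI. That share is therefore no measure of concentration to set beside the 50.9%. The highest deposited count in 1 cell was 43 UMIs for intestinal and 32 for splenic cells.

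Tbx21, the lineage factor, did not follow Ifng. Its level was 31.4 CPM (26.7 to 36.7, 158 UMIs) in the small intestine and 40.0 CPM (36.0 to 44.3, 366 UMIs) in the spleen, a log2 ratio of -0.35 (-0.63 to -0.08) that ran from -0.40 to -0.15 over the scalings and cell filters compared. At equal depth 6.27% (4.93 to 7.83) of intestinal and 7.23% (5.95 to 8.70) of splenic cells had a UMI, a difference of -0.97 percentage points (-2.94 to 1.06) that was within counting error. Without thinning the shares were 11.3% and 19.3%. Nearly every cell with a Tbx21 UMI at equal depth had a single one (means of 1.06 and 1.07).

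The chains of the interleukin 12 receptor differed from each other in their tissue ratios. Il12rb2, the chain that is induced in Th1 cells, was at 171.5 CPM (160 to 183) in the small intestine and 36.3 CPM (32.5 to 40.4) in the spleen, a 4.73-fold (4.16 to 5.38) higher level. At equal depth 27.7% (25.1 to 30.4) of intestinal and 6.68% (5.44 to 8.09) of splenic cells had a UMI of it. Il12rb1, the chain shared with the interleukin 23 receptor, was at 38.0 CPM (32.8 to 43.7) and 23.6 CPM (20.6 to 27.0), 1.61-fold (1.32 to 1.96) higher in the small intestine. At equal depth it was found in 8.01% (6.50 to 9.73) and 4.03% (3.08 to 5.18) of cells, while without thinning the shares were 12.7% in both tissues. This difference of 3.97 percentage points depended on the thinning, since with 5 other random draws it ran from 1.14 to 3.36. Only 22 of 1149 intestinal and 3 of 1438 splenic cells had UMIs of both chains at equal depth, beside 25.5 and 3.87 expected from the product of the shares.

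Stat4, which carries the interleukin 12 signal to the nucleus, was at 189 CPM (177 to 201) in the small intestine and 82.7 CPM (76.9 to 88.8) in the spleen, a 2.28-fold (2.07 to 2.51) higher level. Cells with a Stat4 UMI made up 32.0% (29.3 to 34.8) and 16.6% (14.7 to 18.6) at equal depth. Its ratio was close to the 2-fold rule, and under the settings compared it ran from 1.03 to 1.36 on the log2 scale.

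Both interleukin 18 receptor genes were higher in the small intestine. Il18r1, the ligand-binding chain, was at 82.5 CPM (74.7 to 90.8) there and at 24.1 CPM (21.1 to 27.6) in the spleen, 3.41-fold (2.89 to 4.04) higher. Il18rap, the accessory chain needed for signalling, was at 79.9 CPM (72.3 to 88.1) and 9.83 CPM (7.91 to 12.1), 8.12-fold (6.45 to 10.3) higher, which was the widest ratio among the 8 genes. At equal depth 14.9% (12.9 to 17.1) of intestinal and 3.69% (2.77 to 4.79) of splenic cells had an Il18r1 UMI, and 14.4% (12.4 to 16.5) and 1.74% (1.13 to 2.56) had one of Il18rap. The Il18r1 difference of 11.2 percentage points was larger than in 5 other random draws, where it ran from 8.31 to 10.3. UMIs of both chains were found in 38 intestinal cells, 1.55 times (1.10 to 2.11) the 24.6 expected, and in 2 splenic cells beside 0.92 expected.

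Ifngr1, the receptor chain that binds interferon gamma, was at 1107 CPM (1078 to 1137) in the small intestine and at 413 CPM (400.0 to 426) in the spleen, 2.68-fold (2.57 to 2.79) higher. At equal depth 83.2% (80.9 to 85.3) of intestinal and 45.4% (42.8 to 48.0) of splenic cells had a UMI, a difference of 37.8 percentage points (34.3 to 41.1). The log2 ratio of the Ifngr1 level, 1.42 (1.36 to 1.48), ran from 1.26 to 1.65 over 9 alternatives and left that interval in 4. In cells that the quality filter left out, Ifngr1 was at 756 CPM (655 to 869) in the small intestine and 813 CPM (716 to 921) in the spleen. In those left out as G2/M it was at 975 and 702 CPM. The size of the Ifngr1 gap thus depended on which cells were kept. The signalling partner Ifngr2 had 2 and 33 UMIs and is too thinly counted for a ratio to be read.

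**Figure D2:**
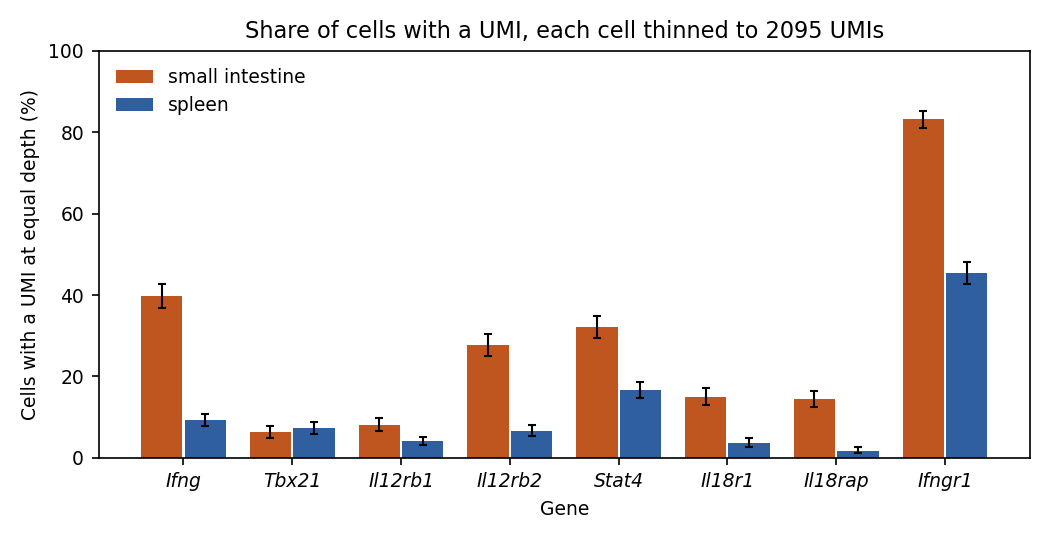
Share of cells with at least 1 UMI of each gene after thinning every cell to 2095 UMIs, for 1149 intestinal (orange) and 1438 splenic cells (blue). Error bars are exact binomial 95% intervals. The bars of Tbx21 (6.27% and 7.23%) overlap in their intervals. Those of the other 7 genes do not in the draw shown, of which Il12rb1 and Il18r1 had smaller differences in 5 other draws. How many of all genes have intervals apart was not counted, so nothing is read from that number.

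Counted per cell, a median of 2 of the 8 genes was detected in intestinal and 1 in splenic cells at equal depth. At least 3 of them were found in 449 intestinal cells (39.1%, 36.2 to 42.0) and 75 splenic cells (5.22%, 4.12 to 6.49). None was found in 61 intestinal cells (5.31%) and 504 splenic cells (35.0%), and no cell of either tissue had more than 6. Much of this rested on Ifngr1, which was found in 83.2% of intestinal and 45.4% of splenic cells. Without Ifngr1, 3 genes were found in 144 intestinal and 22 splenic cells, 4 in 56 and 5, and 5 in 6 and 0. None of the others was found in 268 intestinal and 888 splenic cells.

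Other genes of the pathway, in lists of receptor signalling, interleukin signalling, transcription factors and Th1-associated receptors and cytokines, were counted in the same way. Of 27 such genes 22 had at least 50 UMIs, of which 7 were at least 2-fold higher in the small intestine and 2 at least 2-fold higher in the spleen, with a median log2 ratio of 0.61. Over all genes tested these calls made up 10.4% and 13.6%, and nothing is read from 2 genes in the spleen. Among 4 measured transcription factors 3 were higher in the small intestine. Runx3, a partner of T-bet, was at 249 and 76.7 CPM, Bhlhe40, a factor known to restrain Il10 in T cells, at 243 and 68.3 CPM, and Zeb2, a factor of terminal effector cells, at 79.5 and 18.0 CPM. Hlx was at 7.15 and 10.7 CPM. Of 6 measured genes of interleukin 12 and 18 signalling, Gadd45b, a stress-inducible signalling protein, was past the fold at 689 and 85.9 CPM.

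Among 7 measured Th1-associated receptors and cytokines, Fasl, the death ligand, was at 75.7 CPM in intestinal and 10.1 CPM in splenic cells and Tnf, an inflammatory cytokine, at 26.4 and 6.56. Cxcr3, the chemokine receptor that is a classical T-bet target, went the other way at 66.0 and 160 CPM (log2 ratio -1.28, -1.46 to -1.11). Of 5 measured genes downstream of the interferon gamma receptor, 0 were at least 2-fold higher in the small intestine, with Irf1 at 138 and 73.9 CPM. Socs1, a feedback inhibitor of the receptor, was higher in the spleen, at 32.8 CPM in the small intestine and 107 CPM in the spleen.

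Within each tissue, cells were grouped into graph clusters without the 8 genes and Il10, giving 6 intestinal and 7 splenic clusters. Ifng was highest in intestinal cluster 4 (leading genes Lag3, Ccl5, Tnfrsf4, Dusp2 and Maf), at 584 CPM (529 to 643), followed by intestinal cluster 1 (Plac8, Gzma, Ccl5, Gzmb and Tnfrsf4) at 492 CPM (455 to 531), whose interval overlapped. Intestinal clusters 3 (Gzma, Tnfrsf4, Sdf4, Serpinb6b and Ctla4) and 2 (Gzma, Ccl5, Cd7, Amica1 and Vim) followed at 316 and 273 CPM. Splenic cluster 6 (Ccl5, Nkg7, Ccl4, Id2 and Gzmb) was next at 257 CPM (224 to 295), and its interval overlapped with that of intestinal cluster 2 (237 to 312). The splenic cells with most Ifng thus reached the range of the intestinal clusters.

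Intestinal cluster 6 (Gzma, Cd8a, Cd7, Cd8b1 and Klrd1) at 176 CPM, intestinal cluster 5 (Capg, Emb, Tmsb10, Smco4 and Jun) at 169 CPM and splenic cluster 5 (S100a6, Lgals1, Nkg7, Lgals3 and S100a4) at 158 CPM had overlapping intervals. Below them came splenic cluster 1 (Tnfsf8, Malat1, Tbc1d4, Maf and Btg1) at 45.3 CPM and splenic cluster 4 (Hmgb2, Stmn1, H2afz, Hmgn2) at 28.2 CPM. Splenic clusters 3, 7 (Ncl, Eif5a, Mif, Npm1 and Set) and 2 (Tnfrsf9, Tnfrsf4, Ctla4, Capg and Tnfrsf18), at 10.4, 9.61 and 7.18 CPM, could not be told apart within counting error. The highest cluster was 3.45-fold above the lowest in the small intestine and 35.8-fold in the spleen. Splenic clusters 5 and 6 held 12.7% and 10.1% of splenic cells and 33.8% and 37.9% of splenic Ifng UMIs.

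Droplets can pick up free RNA, so the shares were set beside those of a naive-like splenic cluster. In splenic cluster 3, naive-like by Ccr7, Klf2 and Tcf7 among its 10 leading genes, 6 of 211 cells (2.84%, 1.05 to 6.09) had an Ifng UMI at equal depth, with a median of 3962 deposited UMIs per cell beside 5398 in all kept splenic cells. Cells of cluster 3 had also been sorted for the IL-10 reporter, and 13.3% of them had an Il10 UMI and 18.5% a Ccl5 UMI. Whether they lack Ifng of their own was not tested. The shares in splenic clusters 2 (2.0%) and 7 (3.85%) lay within the interval of the Ifng share in cluster 3. The part of free RNA in them was not tested. The share in splenic cluster 4 (5.09%, 2.57 to 8.93) also lay within that interval. Its level was 28.2 CPM (21.6 to 36.2), beside 10.4 CPM (4.97 to 19.1) in cluster 3. These level intervals take UMIs as separate counts, while the 62 Ifng UMIs of cluster 4 lay in 11.1% of its 217 cells. They are therefore too narrow, and this difference in level is not read further. The share in splenic cluster 1 was 9.24% (6.23 to 13.1). Splenic clusters 5 (21.6%, 15.9 to 28.3) and 6 (25.9%, 18.9 to 33.9) and all 6 intestinal clusters (19.5% to 54.9%) lay above the interval of cluster 3. No naive-like cluster was found in the small intestine, so the intestinal shares have no such comparison within their own library, and the part of free RNA in them was not tested. There Cd8b1, a gene of cluster 6 (76.7% of its cells) with a level of 152 CPM over all kept cells, was found in 0% to 2.20% of cells of clusters 1, 3, 4 and 5 and in 5.62% of cluster 2. It is no measure of free Ifng RNA, which was at another level (354 CPM).

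Il12rb2 followed a similar order of clusters. In the small intestine it was found in 43.5% of cells of cluster 1, 38.5% of cluster 4 and 34.0% of cluster 3, but in 3.25% of cluster 5. In the spleen it was found in 17.3% of cluster 5 and 16.8% of cluster 6 and in 0.474% of the naive-like cluster 3. Il18rap ran from 5.43% of cells in intestinal cluster 6 to 20.9% in cluster 1, and from 0.330% to 4.86% over splenic clusters. Il18r1 was at 20.8% in intestinal cluster 5, where Il12rb2 was low and 237 Il17a UMIs were found. It was at a like share in clusters 3 (20.5%) and 4 (20.3%), where Il12rb2 was high. In intestinal cluster 6 Il18r1 was found in 0 of 129 cells at equal depth, with an upper limit of 2.82%. Without thinning it was found there in 2.96% of cells (5 UMIs). Tbx21 was lowest in the naive-like splenic cluster 3 (1.42%) and in intestinal cluster 5 (1.30%) and highest in splenic cluster 6 (12.6%, 7.64 to 19.2). Stat4 was found in 24.6% of the naive-like cells, as many as in splenic cluster 6 (24.5%). Ifngr1 ranged from 67.4% to 91.5% over intestinal clusters and from 16.9% to 68.0% over splenic ones.

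**Figure D3:**
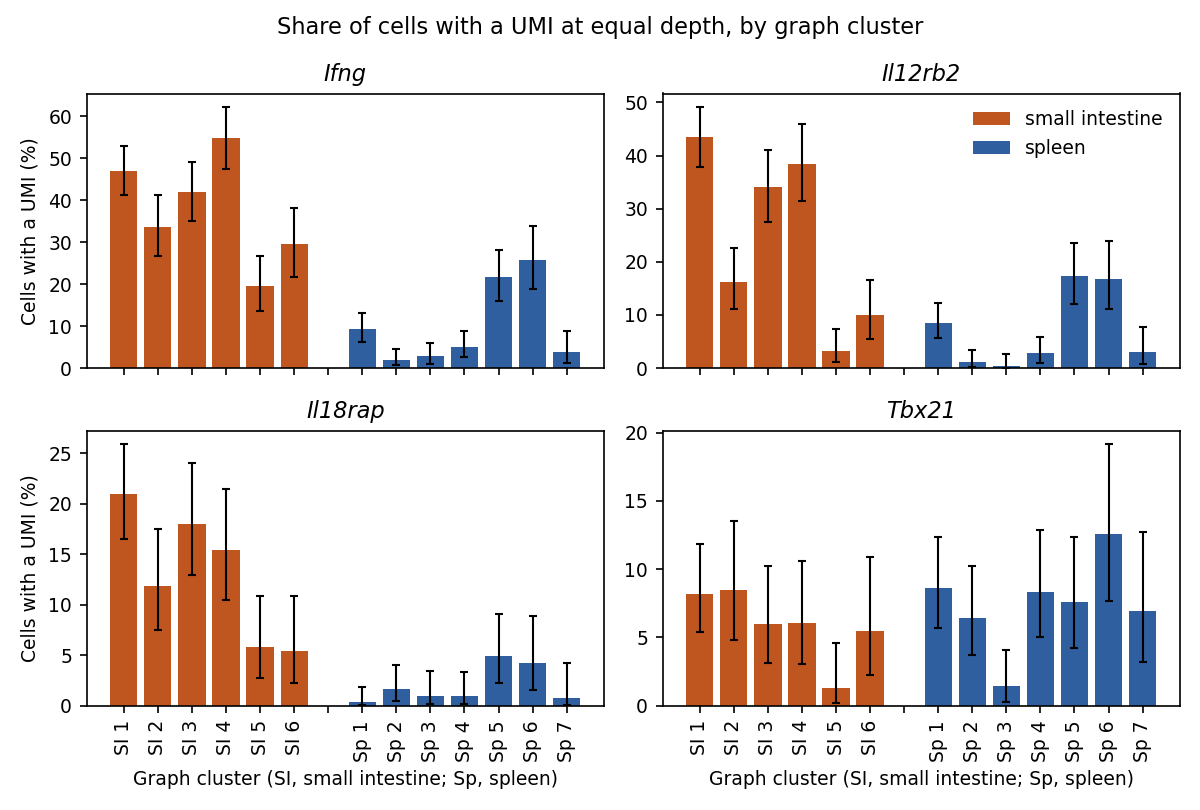
Share of cells with a UMI at equal depth of Ifng, Il12rb2, Il18rap and Tbx21 in the 6 intestinal (orange, SI) and 7 splenic clusters (blue, Sp), with exact binomial 95% intervals. Each panel has its own axis. Ifng and Il12rb2 stand highest in intestinal clusters 1, 3 and 4 and, in the spleen, in clusters 5 and 6, while Tbx21 reaches its highest share, 12.6%, in splenic cluster 6.

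Foxp3, the regulatory T cell factor, and the CD8 genes moved with tissue. Foxp3 was at 7.55 CPM in the small intestine and 51.1 CPM in the spleen. Among splenic cells with a Foxp3 UMI, 2.53% (1.02 to 5.14) had an Ifng UMI at equal depth, close to the naive-like cells, and 57.4% had one of Il10. Among those without, 10.8% (9.04 to 12.7) had Ifng. In the small intestine, 11.1% (2.35 to 29.2) of 27 cells with a Foxp3 UMI had an Ifng UMI at equal depth. The Ifng level in cells with a Foxp3 UMI was 194 CPM (130 to 279, 29 UMIs) there and 8.18 CPM (4.92 to 12.8, 19 UMIs) in the spleen. The 29 intestinal UMIs lay in 14.3% of 28 cells, and the 19 splenic ones in 5.36% of 280. With so few cells behind the intestinal level, its interval, which takes UMIs as separate counts, is too narrow. The levels in these cells are therefore not compared between tissues. Without cells with a Foxp3 UMI in either tissue the log2 ratio of Ifng was 2.20. In the small intestine 121 cells had UMIs of both Cd8a and Cd8b1, and 24.1% (16.7 to 33.0) of them had an Ifng UMI at equal depth, beside 41.4% (38.4 to 44.5) of the others. The Ifng level in the others was 385 CPM, and the log2 ratio to the spleen without cells of that kind was 2.68.

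Il10 itself was at 597 CPM (576 to 619) in the small intestine and 476 CPM (462 to 490) in the spleen, and was found in 60.9% and 44.2% of cells at equal depth. The eGFP feature of the files had 6 and 7 UMIs in the kept cells and could not serve as a partner in co-detection. At equal depth 299 intestinal cells (26.0%, 23.5 to 28.7) and 69 splenic cells (4.80%, 3.75 to 6.03) had UMIs of both Ifng and Il10. The product of the shares gave 278 and 58.4 cells, so the ratios of observed to expected were 1.08 (0.97 to 1.19) and 1.18 (0.92 to 1.49), and both intervals held 1. Such intervals hold the expected number fixed, which makes them too wide where both genes are found in many cells. That they held 1 therefore does not show that Ifng and Il10 transcripts met independently. Over 5 other random thinnings the ratios were 1.04 to 1.10 and 1.15 to 1.32, and in each tissue 1 of the 5 intervals lay above 1. With all deposited UMIs 512 (40.1%) and 178 cells (12.1%) had both, with ratios of 1.05 (0.98 to 1.13) and 1.19 (1.03 to 1.37), so that the splenic interval lay above 1 at that uneven depth.

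Seen from the Ifng side, 65.6% (61.0 to 69.9) of intestinal cells with Ifng had an Il10 UMI, against 57.9% (54.1 to 61.6) of those without. In the spleen the shares were 52.3% (43.4 to 61.0) and 43.4% (40.7 to 46.2). With expected numbers computed inside graph clusters and summed, the ratios fell to 1.05 and 1.03. Over genes found in at least 5% of cells the median ratio with Il10 was 1.01 for intestinal and 1.02 for splenic cells, and 15.1% of 4400 and 6.16% of 4382 genes had a ratio at or above that of Ifng. A ratio of at least 1.25 with Il10 was reached by 0.295% of genes in intestinal and 2.01% in splenic cells, and Ifng was under it in both. The genes of this background were not matched to Ifng in their share of cells, on which the range of such a ratio depends. The place of Ifng among them is therefore not read further. Of the other axis genes, Tbx21 was over a ratio of 1.25 in the spleen, with 64 cells that had Tbx21 and Il10 beside 46.0 expected (1.39, 1.08 to 1.77).

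The share of cells with Ifng was also read along the Il10 count of the same cell. In the small intestine it was 35.0% (30.6 to 39.6) in 449 cells with 0 Il10 UMIs, 39.4% (34.0 to 45.0) with 1, 43.3% (35.9 to 50.9) with 2, 49.7% (41.4 to 58.0) with 3 to 4 and 41.5% (28.1 to 55.9) in 53 cells with 5 or more. The intervals for 0 and for 3 to 4 UMIs did not overlap, and those of neighbours did. In the spleen the shares were 7.86% with 0 Il10 UMIs, 12.6% with 1, 8.15% with 2, 8.80% with 3 to 4 and 11.9% with 5 or more, with overlapping intervals throughout.

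**Figure D4:**
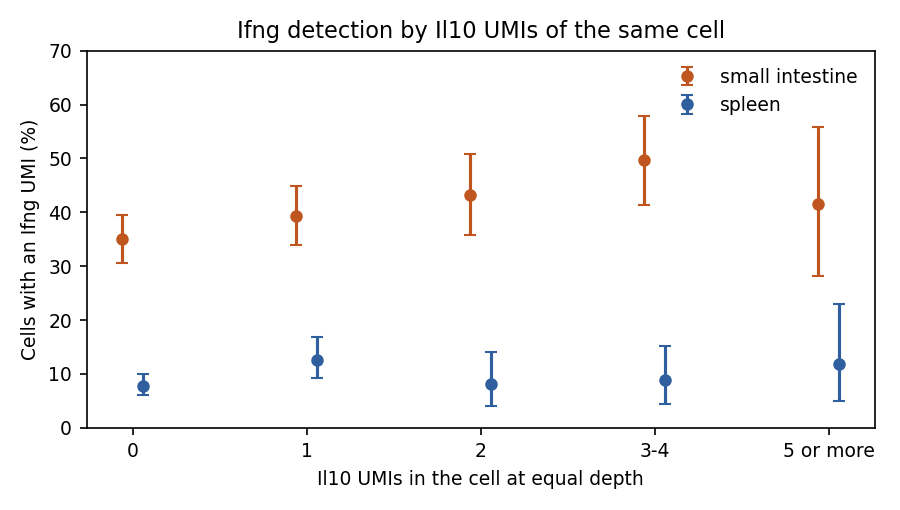
Share of cells with an Ifng UMI at equal depth by the number of Il10 UMIs in the same cell, in the small intestine (orange) and the spleen (blue), with exact binomial 95% intervals. Intestinal shares lie between 35.0% and 49.7% and splenic ones between 7.86% and 12.6%, with no overlap between tissues.

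Ifng was co-detected with the other axis genes to different extents. In the small intestine 157 cells had Ifng and Il12rb2, 1.24 times (1.07 to 1.44) the 126 expected. In the spleen 21 cells had both, 2.38 times (1.48 to 3.63) the 8.81 expected, and inside clusters the ratio was 1.31. With Tbx21 the ratio was 1.12 (0.77 to 1.57, 32 cells) in the small intestine and 2.30 (1.45 to 3.48, 22 cells beside 9.55 expected) in the spleen, and 1.87 inside splenic clusters. Inside intestinal clusters the ratio of Ifng and Il12rb2 was 1.09. For Ifng and Ifngr1 the ratios were 1.01 and 0.92. Such a ratio cannot rise far above 1 where a gene is found in most cells. Ifngr1 was found in 88.7% (84.7 to 91.9) of intestinal cells with Il12rb2 and 81.1% (78.3 to 83.7) of those without it, although the ratio was 1.07 (0.96 to 1.18). By the interval of the ratio alone, of all 28 pairs among the 8 genes 3 had an interval above 1 in the small intestine, the others being Il12rb2 with Il18rap (76 cells beside 45.7 expected) and Il18r1 with Il18rap. In the spleen 3 pairs did, the third being Il18r1 with Ifngr1 (39 cells beside 24.1 expected), and Tbx21 with Il18r1 had an interval below 1, with 0 cells beside 3.83 expected. The share of other gene pairs with such intervals was not computed, and the pairs among the 8 genes were read in a single thinning. Nothing is therefore read from the numbers of pairs. Ifng and Foxp3 UMIs met in 2 intestinal cells beside 7.94 expected and in 2 splenic cells beside 10.4 expected.

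**Figure D5:**
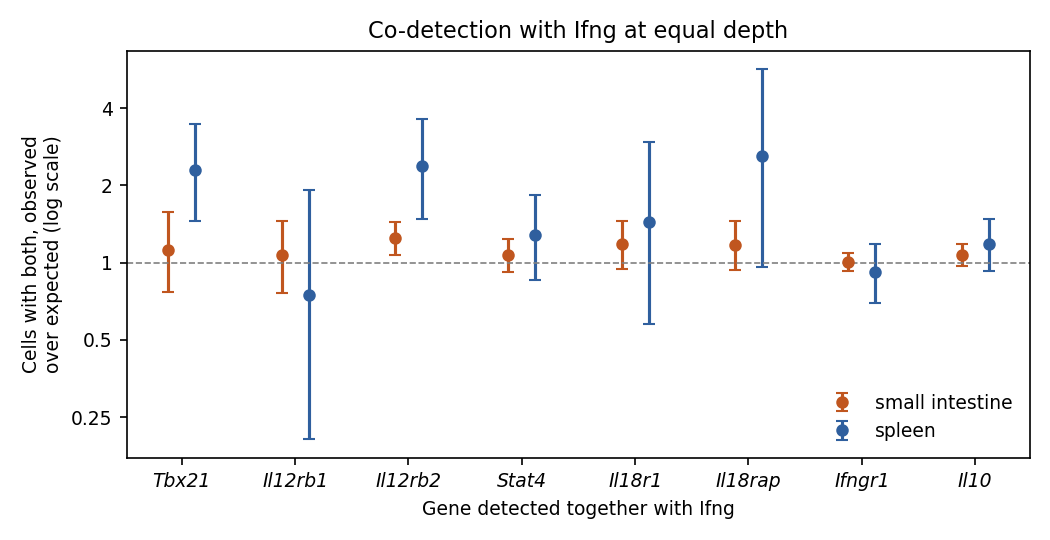
Cells with UMIs of both Ifng and another gene at equal depth, observed over expected from the product of the shares (log axis), in the small intestine (orange) and the spleen (blue), with exact binomial 95% intervals. The dashed line marks a ratio of 1. The intervals of Il12rb2 in both tissues and of Tbx21 in the spleen lie above it, and those of Il10 include it. The intervals hold the expected number fixed and are too wide for common genes, so including 1 does not show independence.

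Among 3787 genes found in at least 5% of cells of each tissue, the genes most like Ifng across cells, by the lower of the within-tissue Pearson correlations of log2(UMIs + 1), were Ccl4 (0.17 in the small intestine, 0.26 in the spleen), Nkg7 (0.14 and 0.26), Id2 (0.14 and 0.16), Lag3 (0.12 and 0.14) and Ccl3 (0.12 and 0.27). Il12rb2 ranked 10th with 0.13 and 0.10. Stat4 ranked 151st, Tbx21 221st and Il10 352nd, the last with 0.11 over intestinal and 0.02 over splenic cells. These are descriptions over 1149 and 1438 cells, each set from 1 library at equal depth, and all were weak.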

How the data were processed

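IL-10-producing CD4+ T cells of spleen and small intestine were measured with the 10x Chromium platform, 1 library per tissue. The authors trimmed the reads with Trimmomatic, aligned them to mm10 with Cell Ranger and deposited raw UMI counts per gene and cell barcode (versions not given in the sources used here), before the filters of the study on cells and genes. Those files held 1474 intestinal and 1738 splenic barcodes, with 981 to 19521 and 1599 to 30383 UMIs per cell.

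The cell filters were those of the study's methods, except for the mitochondrial share, where a cut above the median was used although the methods word each cut as one below it. They kept fewer cells of each tissue than the study reports for its 10x data, so the cell sets differ. Cells whose UMI or gene number (log scale) lay over 3 MAD under the median, or whose mitochondrial share lay that far above it, were left out (135 intestinal and 90 splenic, of which the mitochondrial cut took 127 and 90), and then cells placed in G2/M by cyclone (62 and 180; scran 1.30.0, scuttle 1.12.0, R 4.3.3). Cells were clustered within each tissue from variable genes other than the 8 genes, Il10 and eGFP (20 principal components, 10 neighbours, Louvain, bluster 1.12.0). UMI counts were summed to CPM, and thinning drew 2095 UMIs per cell without replacement, the 10th percentile of kept intestinal cells. Shallower cells were left out, 128 intestinal and 30 splenic. Ratios of levels have exact conditional binomial intervals, shares Clopper-Pearson intervals, and intervals of co-detection are those of the observed share divided by the expected one. Python 3.11.15, numpy 2.4.6 and scipy 1.17.1 were used, and Scrublet in scanpy 1.11.5 and TMM in edgeR 4.0.16 served as alternatives only. Scrublet called 4 doublets per tissue, under 0.5% of barcodes, and they were kept. The steps were tested on simulated data.

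With 1 library per tissue no p-value was computed. Genes were called past a 2-fold ratio. The 8 genes, the pathway lists and the marker lists were chosen with earlier results of these data known. Named besides them are pathway genes past the fold (some items are not reported here), the 5 genes most like Ifng and up to 5 leading genes per cluster (in at least 25% of its cells). Genes named outside that rule were chosen after their values were seen.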

Additional observations from a re-analysis of the deposited data

Results flagged for a closer look

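Signals in data that the comparisons did not use were as follows, and their causes were not tested. The eGFP feature of the reporter had 6 UMIs in the kept intestinal and 7 in the kept splenic cells, although the cells had been sorted for eGFP. The mRFP feature, the reporter of Foxp3, had 9 and 108 UMIs.

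Ifng was also counted in the cells that the filters left out. In those removed by the quality filter it was at 182 CPM (134 to 242, 48 UMIs) in the small intestine and at 29.4 CPM (13.4 to 55.8, 9 UMIs) in the spleen. In those placed in G2/M it was at 214 CPM (171 to 264, 85 UMIs) in the small intestine and at 49.8 CPM (39.6 to 61.8, 82 UMIs) in the spleen. In both kinds of removed cells the intestinal level was above the splenic one, and the intestinal levels were under the 354 CPM of the kept intestinal cells.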

How the results depend on the processing

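No paired analysis was possible because each tissue had a single library and no test was made. For the same reason no library could be left out in turn. The log2 ratio of Ifng ran from 2.20 to 2.73 over 9 alternatives and moved out of its interval in 2 of them. It was 2.20 without cells with a Foxp3 UMI, and 2.73 in CPM without 6 genes taken out by a cut of 1% of UMIs. Those genes together held 15.2% of intestinal and 4.53% of splenic UMIs, so not all of them passed 1% in the spleen. Leaving those genes out moved the median of all genes from -0.02 to 0.15, a shift that all genes share. The difference in share of cells with Ifng was 24.5 percentage points after thinning to 1500 UMIs, 38.6 after thinning to 3000 and 36.8 without thinning, since more UMIs per cell show more cells with Ifng, and it stayed within its interval under the other 11 alternatives. The ratios of Ifng and Il10 stayed within their intervals in all 15 alternatives each, from 1.03 to 1.10 for intestinal and 1.03 to 1.32 for splenic cells. As those intervals hold the expected number fixed and can be too wide, no stability is read from this. The number of axis genes past the fold was 6, and 7 at a fold of 1.5. Of all 9032 genes with at least 50 UMIs, 21.4% passed this lower fold towards intestinal cells and 24.1% towards splenic cells. Of the values for the axis genes other than Ifng, 27 moved and 134 did not, and none changed sign. At this depth a gene with a share of a few percent, such as Tbx21 or Il12rb1, gives few cells per cluster.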
